A study of Rattus norvegicus with 16 samples.

Results

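The microRNAs (miRNAs) of rat brain and testis were compared through 4 of the 16 small RNA libraries: 1 whole brain and 1 testis from an adult male BN-Lx rat and 1 of each from an adult male SHR rat. Both are inbred strains. The libraries were taken by their tissue labels, and 1 rat of each strain gave all 6 tissues of the set (brain, testis, liver, spleen, heart and kidney), so the strains served as the replicates of a tissue and each brain library has a testis library from the same animal. The labels name no treatment. Unless the fit of the 4 libraries alone is named, the p-values come from fits of all 6 tissues with tissue and strain as terms. They measure the spread between the libraries of a tissue over all 6 tissues. Liver, spleen, heart and kidney thus contribute to that spread, and it is not specific to brain and testis. Whole organs were used, in which fewer cells of a type and less RNA per cell cannot be told apart.

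A miRNA is cut from a hairpin precursor whose 5' and 3' arms (5p and 3p) can each give a mature strand of about the length of a short duplex, and bases 2 to 8 of that strand, the seed, pair with target messages. In brain, mir-124, mir-9 and mir-128 are classic markers of neurons, and mir-219 and mir-338 of oligodendrocytes, the cells that make myelin. In testis, meiotic and haploid germ cells are known for the mir-34b/c and mir-449 hairpins, which share their seed with mir-34a, and for a fast-evolving cluster on the X chromosome that includes mir-742 and mir-743a, while mir-202 is a miRNA of the gonads.

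The values are reads that match a hairpin perfectly, summed per arm and given as RPM, the reads a strand would have if the library held 1000000 miRNA reads. The brain libraries held 1064894 reads (BN-Lx) and 860468 reads (SHR), the testis libraries 26880 and 29131 reads, and the other 8 libraries 403453 to 737949 reads. A single read was therefore worth 0.939 and 1.16 RPM in brain but 37.2 and 34.3 RPM in testis. According to the study's methods the testis libraries also went through more cycles of PCR than the brain libraries, so depth, amplification and tissue cannot be told apart. Intervals cover counting error only, since copies made by PCR were not marked. One brain library also stood apart: BN-Lx brain held 1531 reads of the epithelial mir-200a-3p and SHR brain 35, and the counts of called arms were recomputed without each library in turn. Values are given in the order BN-Lx, SHR throughout.

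The labels were borne out by the markers. mir-128-1-3p had 29285 and 30569 RPM in brain and 1060.3 and 1322 RPM in testis, mir-34c-5p had 948 and 1748 RPM in brain and 13914 and 25231 RPM in testis, and mir-742-3p had 1.88 and 9.30 RPM in brain and 22507 and 27462 RPM in testis. Neither strain's libraries overlapped between the tissues for any of these 3 arms.

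The mature strands on which the comparison turns are shown with the seed in capitals, as RefSeq gives them on build GRCr8. Of 102 named arms, 84 had a RefSeq mature sequence, and mir-124 was not among them. The first set holds strands of the neuronal and oligodendrocyte lists and the most abundant strand of the Dlk1-Meg3 cluster.
miR-128-3p: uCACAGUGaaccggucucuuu
miR-9a-3p: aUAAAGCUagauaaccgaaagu
miR-129-2-3p: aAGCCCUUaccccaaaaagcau
miR-132-3p: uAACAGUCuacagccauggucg
miR-219a-2-3p: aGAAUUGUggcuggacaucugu
miR-338-3p: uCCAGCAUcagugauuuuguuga
miR-487b-3p: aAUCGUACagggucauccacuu

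The second set holds strands of testis. The first 8 come from the mir-463 and mir-201 clusters of the X chromosome and the last is the 5p strand of mir-202. No seed is shared within this set.
miR-742-3p: gAAAGCCAccauguuggguaaa
miR-743a-3p: gAAAGACGccaaacuggguaga
miR-743b-3p: gAAAGACAccauacugaauaga
miR-883-3p: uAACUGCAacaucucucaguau
miR-741-3p: aAAGAUGCcacgcuauguagau
miR-463-5p: uACCUAAUuuguuguccauca
miR-3580-3p: uGACUAGGguaguaugaguaga
miR-547-5p: uCACUUCAggauguaccaccca
miR-202-5p: uUCCUAUGcauauacuucu

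The third set is the mir-34 and mir-449 family, whose 5p strands share 1 seed and whose mir-34b and mir-34c 3p strands share another.
miR-34a-5p: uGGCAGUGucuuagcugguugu
miR-34b-5p: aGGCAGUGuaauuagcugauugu
miR-34c-5p: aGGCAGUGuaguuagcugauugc
miR-449a-5p: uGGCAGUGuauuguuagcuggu
miR-34b-3p: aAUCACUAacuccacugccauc
miR-34c-3p: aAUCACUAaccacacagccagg

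The fourth set holds strands that brain and testis had in common, the first 3 above the other tissues and the last 2, which share a seed, within a narrow interval of each other on the scale of the fit.
miR-135b-5p: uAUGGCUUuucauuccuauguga
miR-204-5p: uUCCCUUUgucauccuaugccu
miR-296-5p: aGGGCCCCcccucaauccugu
miR-103-3p: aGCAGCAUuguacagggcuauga
miR-107-3p: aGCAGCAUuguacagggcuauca

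Over the whole table, 458 arms passed the expression filter and were tested by edgeR's quasi-likelihood test with the strain as a term (Benjamini-Hochberg adjusted p under 0.05, two-sided). Of these, 120 arms (26.2%) were higher in brain and 78 arms (17.0%) were higher in testis, and these shares are the background for every list that follows. All differences are log2 differences, brain minus testis, on the scale of the fit. The median over all tested arms was 1.25, and it ranged from 0.85 to 1.29 with other scalings, so a list is set beside that median and not beside 0. The TMM factors, which correct a library's total for its composition, were 1.54 and 1.38 in brain and 1.92 and 1.72 in testis, so a fitted difference lies toward brain of the ratio of the RPM values. Where an arm had no read in a tissue, its fold is a lower bound against 3 reads over both libraries of that tissue, which are 53.6 RPM in testis and 1.56 RPM in brain. The medians with such arms at that bound are given beside the fitted ones with their number of arms, since arms with too few reads to give a bound on their own side of 0, or with no read in either tissue, drop out. That median was 0.66 over 397 of the 458 tested arms. Without the BN-Lx testis library, 78 arms were higher in brain.

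**Figure D1:**
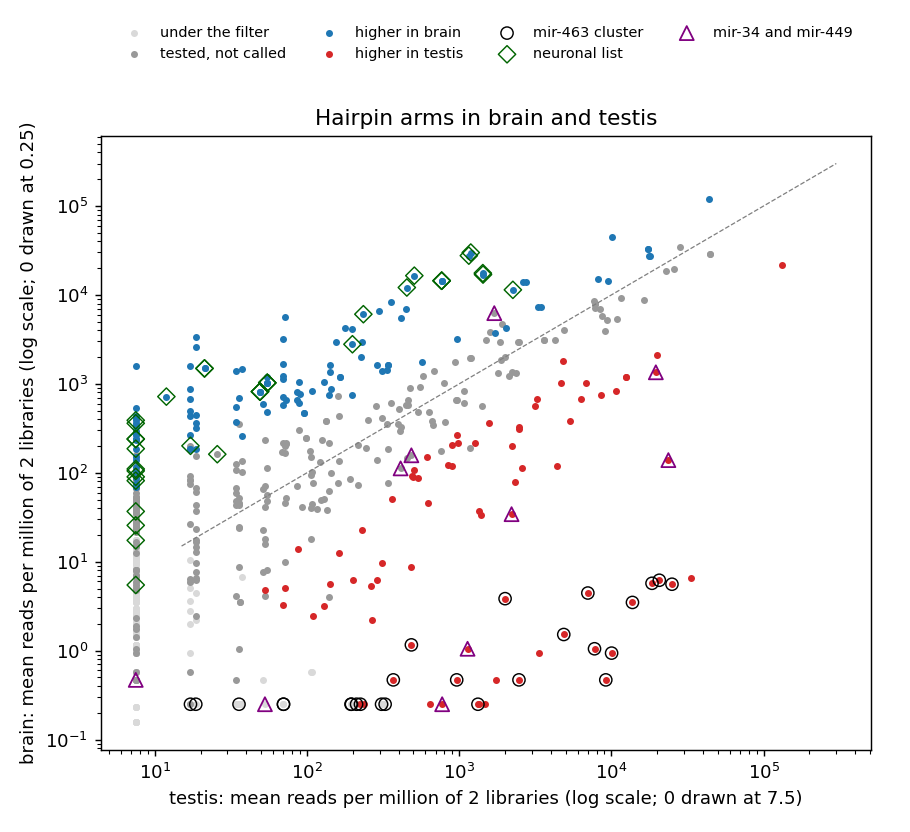
Mean RPM of each hairpin arm with a read in the 4 libraries, testis on the horizontal and brain on the vertical axis, both on log scales. Colours give the edgeR call, open symbols mark the neuronal list, the mir-463 cluster and the mir-34 and mir-449 family, and the dashed line marks equal levels. The 120 arms higher in brain lie at the upper left and the 78 arms higher in testis at the lower right, where the mir-463 cluster is under 10 RPM in brain.

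The neuronal miRNAs were higher in brain throughout. The list of 18 hairpins held 174395 and 216829 RPM in brain and 13690.5 and 9440.1 RPM in testis, and 1159 to 10305 RPM in the other 8 libraries, so the list made up 17.4% and 21.7% of the brain reads and 1.37% and 0.944% of the testis reads. All 36 of its arms had a read in brain and lay above both testis libraries. Over all 623 arms with a read in the 4 libraries, 312 did so, with brain sequenced far deeper than testis. No testis read was found for 13 of the 36 arms, against 246 of the 623. The test could be run on 32 of the 36 arms, of which 26 were higher in brain, 0 were higher in testis and 6 did not pass. Of the 32 tested arms, 10 held less than 1 read in testis, so a call toward testis could not arise for them. The median difference of the 32 was 4.95, or 4.57 over 31 of them with the arms at 0 in testis at their bound.

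By the mean of the brain libraries the leading neuronal strand was mir-128-3p, a miRNA that is raised as neurons mature, although mir-124-3p exceeded it in SHR brain. Its 2 hairpins, on chromosomes 8 and 13, give the same strand and the authors divided shared reads evenly, so their separate values are uncertain and the sum is the safer measure. Together they had 56391 and 58701 RPM in brain and 2121 and 2575 RPM in testis, against 242 to 1221 RPM elsewhere, and the summed strand differed by 5.35 ± 0.45 (SE), adjusted p = 2.59e-05. The range over libraries left out in turn was 4.72 to 5.10 for mir-128-1-3p alone. The 5p strand of mir-128-1 was rare, with 16 and 17 reads in brain and 0 in testis, and fell under the filter.

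Other neuronal strands spread widely in how far they parted from testis. mir-124-3p, the most neuron-restricted miRNA by reputation, summed over its 3 hairpins had 22349.6 and 64232 RPM in brain and 3571 and 1029.8 RPM in testis, a difference of 5.36 ± 1.12 (SE), adjusted p = 0.00226. The SHR brain library held more of it than the BN-Lx one and the testis libraries stood the other way round, so that leaving out a library moved the difference of each hairpin between 3.25 and 5.88. mir-9-3p, from 3 hairpins expressed in neural progenitors and neurons, had 4576 and 2669 reads in brain and 2 and 1 reads in testis, a brain to testis ratio of 70.3 (95% counting interval 24.0 to 341). The strands that follow had more than 10 reads over the testis libraries. mir-138-5p, known from dendrites, had 30504 and 26604 RPM in brain and 1302 and 618 RPM in testis. mir-132-3p, which neuronal activity induces, had 6560.3 and 5568 RPM in brain and 298 and 172 RPM in testis and differed by 5.04 ± 0.66 (SE), adjusted p = 9.58e-05. mir-129-2-3p was the neuronal strand with the most testis reads for its brain level, at 8320.1 and 14470.0 RPM in brain and 2083 and 2420.1 RPM in testis, and differed by 2.65 ± 0.59 (SE), adjusted p = 0.00301. Among the 7 neuronal strands with at least 10 reads in testis, the ratio of the pooled libraries ran from 4.91 for mir-129-3p to 30.4 for mir-138-5p, and mir-124-3p (18.3) and mir-128-3p (24.4) lay between.

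The strands with the largest fitted differences toward brain were mostly ones without a testis read, for which only a bound can be given. mir-338-5p had 2102 and 1011 reads in brain and 0 and 0 reads in testis and was at least 30.2-fold higher in brain. mir-136-3p and mir-539-5p of the Dlk1-Meg3 cluster were at least 9.92-fold and 7.99-fold higher, and mir-380-3p and mir-376b-5p of the same cluster at least 6.39-fold and 5.48-fold. For mir-346-5p, mir-138-1-3p, mir-137-3p and mir-708-5p the bounds were 7.76, 7.35, 6.63 and 6.48. mir-9-3-3p, the remaining strand of the 10 named here, had only an evenly divided part of a read in each testis library. The calls of 3 of these strands depended on 1 library: mir-137-3p lost its call without SHR brain (adjusted p = 0.0502), without BN-Lx testis (adjusted p = 0.0594) and without SHR testis (adjusted p = 0.0556), as well as by DESeq2 (adjusted p = 0.0556), and mir-380-3p (adjusted p = 0.0735) and mir-708-5p (adjusted p = 0.074) lost theirs without BN-Lx testis.

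The oligodendrocyte miRNAs were also higher in brain. The 3 hairpins of the list had 14749.8 and 13366 RPM in brain and 335 and 481 RPM in testis. Of 6 arms, 5 were tested, 4 were higher in brain and 1 did not pass, with a median difference of 4.82. mir-219-2-3p had 6274 and 4575 reads in brain and 2 and 2 reads in testis and differed by 6.60 ± 0.67 (SE), adjusted p = 3.10e-05. mir-338-3p had 6629.8 and 6624 RPM in brain and 186 and 412 RPM in testis and differed by 4.82 ± 0.57 (SE), adjusted p = 5.62e-05. The few reads of mir-338-3p in testis (5 and 12) lay within its range in the other tissues (97.4 to 489 RPM).

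The Dlk1-Meg3 cluster, an imprinted run of hairpins on chromosome 6 that is transcribed from the maternal chromosome and is prominent in brain, was the largest list. Its 46 hairpins gave 53020.3 and 49429 RPM in brain and 3869 and 5458 RPM in testis, against 283 to 1462 RPM in the other 8 libraries, so testis held more of it than liver, spleen, heart or kidney. Of 89 arms with a read, 64 were tested, 36 were higher in brain, 0 were higher in testis and 28 did not pass. Of the 64, 27 held less than 1 read in testis, so a call toward testis could not arise for them. No read was found in testis for 52 of the 89 arms, against 246 of the 623 arms with a read in the 4 libraries. The median difference of 4.87 became 3.30 over 56 of the 64 with the arms at 0 in testis at their bound. Its leading strand, mir-487b-3p, had 8851 and 7933 RPM in brain and 298 and 412 RPM in testis and differed by 4.88 ± 0.55 (SE), adjusted p = 4.52e-05. mir-434-3p followed with 6699 and 7236 RPM in brain and 446 and 446 RPM in testis, and mir-323-3p with 4165 and 4081 RPM in brain and 223 and 172 RPM in testis.

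A few strands of this cluster did not follow the rest. mir-494-3p had 765 and 549.7 RPM in brain and 1042 and 858 RPM in testis, with 28 and 25 reads in testis, and both testis libraries lay above both brain libraries, although the difference of -0.21 ± 0.58 (SE), adjusted p = 0.799, did not pass and turned to 0.19 with paralogs summed. mir-1193-3p had 188 and 189 RPM in brain and 74.4 and 412 RPM in testis and the tissues overlapped. The pooled ratio of brain to testis was 0.707 for mir-494-3p and 0.754 for mir-1193-3p, against 8.58 to 23.6 for the other 4 strands of the cluster with at least 10 testis reads (mir-434-5p, mir-434-3p, mir-323-3p and mir-487b-3p).

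**Figure D2:**
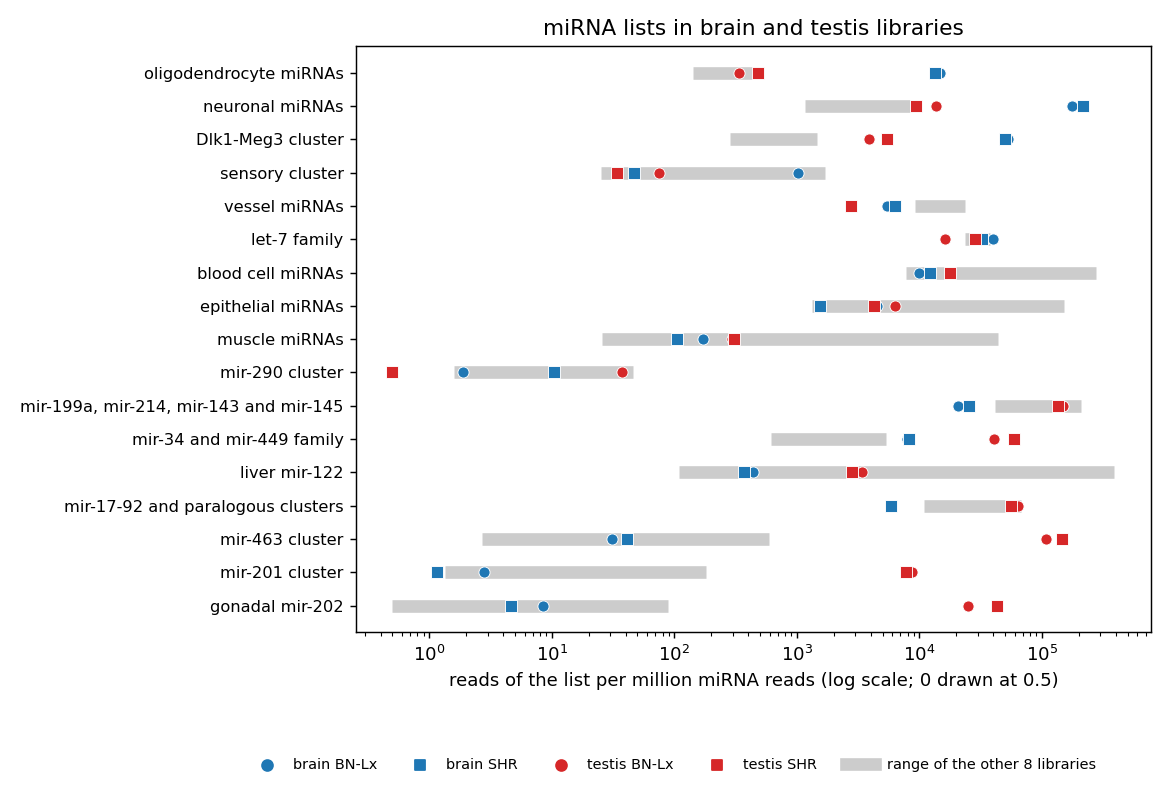
RPM of each miRNA list (log scale) in the 2 brain libraries (blue), the 2 testis libraries (red) and, as grey bars, the range of the other 8 libraries. Circles are BN-Lx and squares SHR. Brain leads in the neuronal, oligodendrocyte and Dlk1-Meg3 lists, and testis in mir-202, the mir-201 and mir-463 clusters, the mir-17-92 clusters and the mir-34 and mir-449 family.

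Hairpins on the X chromosome gave more of the testis reads than of the brain reads, with 16.0% and 19.1% in testis and 2.71% and 2.20% in brain. The share was also high in spleen, at 13.5% and 17.6%, and 2.61% to 3.83% in the other 6 libraries, so it did not single out testis. Of 72 tested arms from X, 34 were higher in testis and 8 in brain, while of the 386 other arms 44 were higher in testis and 112 in brain. The X arms higher in testis include all 16 tested arms of the mir-463 cluster and all 5 of the mir-201 cluster. With almost no brain reads, those arms could not be called toward brain.

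Most of the testis reads from X came from the mir-463 cluster, 14 hairpins that lie on the minus strand of chromosome X at chrX:150444098-150488232 (GRCr8, from the mature strands in RefSeq). The cluster had 31.0 and 40.7 RPM in brain and 107366 and 144485 RPM in testis, so 10.7% and 14.4% of all testis reads came from these 14 hairpins against 0.00310% and 0.00407% of the brain reads. Of 26 arms, 16 were tested and all 16 were higher in testis. These 16 had almost no brain reads and passed the filter through other libraries, mainly testis, so a call toward brain could not arise. The other 10 arms were under the filter. Over all 26, 22 lay above both brain libraries in both testis libraries, 4 overlapped, and 12 had no read in brain. Of the 623 arms with a read in the 4 libraries, 138 lay above brain in this way and 23 had no read in brain. The median difference was -11.37, or -11.17 over the same 16 arms with those at 0 in brain at their bound.

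mir-742-3p led the cluster by the mean of the testis libraries, with 1.88 and 9.30 RPM in brain and 22507 and 27462 RPM in testis and differed by -11.74 ± 1.62 (SE), adjusted p = 2.34e-04. mir-463-5p had 6.57 and 5.81 RPM in brain and 9821 and 31444 RPM in testis, and the SHR testis library held more of it than of mir-742-3p. mir-743b-3p had 5.63 and 5.81 RPM in brain and 16964 and 19979 RPM in testis and mir-741-3p 0 and 6.97 RPM in brain and 10082 and 17404 RPM in testis. For the strands with the fewest brain reads the ratio of the pooled libraries is given with its counting interval, which is wide. mir-743a-3p had 2 and 0 reads in brain and 274 and 287 reads in testis, a ratio of 9642 (95% counting interval 2657 to 79814). mir-3580-3p had 1 and 0 reads in brain and 238 and 277 reads in testis, a ratio of 17703 (95% counting interval 3163 to 700571), and mir-883-3p 1 and 1 reads in brain and 227 and 205 reads in testis, a ratio of 7425 (95% counting interval 2043 to 61506). mir-465-3p had 28 and 47 reads in testis and none in brain, at least 859-fold higher in testis. With a library left out, the fitted difference of mir-742-3p, which has 10 brain reads in all, ranged from -13.88 to -10.66, and the calls of mir-742-3p, mir-463-5p, mir-741-3p, mir-743a-3p, mir-3580-3p, mir-883-3p and mir-465-3p held with any 1 library left out. The 5p strand mir-742-5p, with 1 and 12 reads in testis and none in brain, lost its call without BN-Lx brain (adjusted p = 0.054) and without SHR brain (adjusted p = 0.0713), and by DESeq2 (adjusted p = 0.107).

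The levels along the cluster were uneven. The 5 most-read hairpins (mir-742, mir-743b, mir-463, mir-741 and mir-743a) lay between 10045 and 31959 RPM in testis, while mir-471 had 707 and 652 RPM and mir-3551, between mir-471 and mir-741, had 4 and 9 reads.

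**Figure D3:**
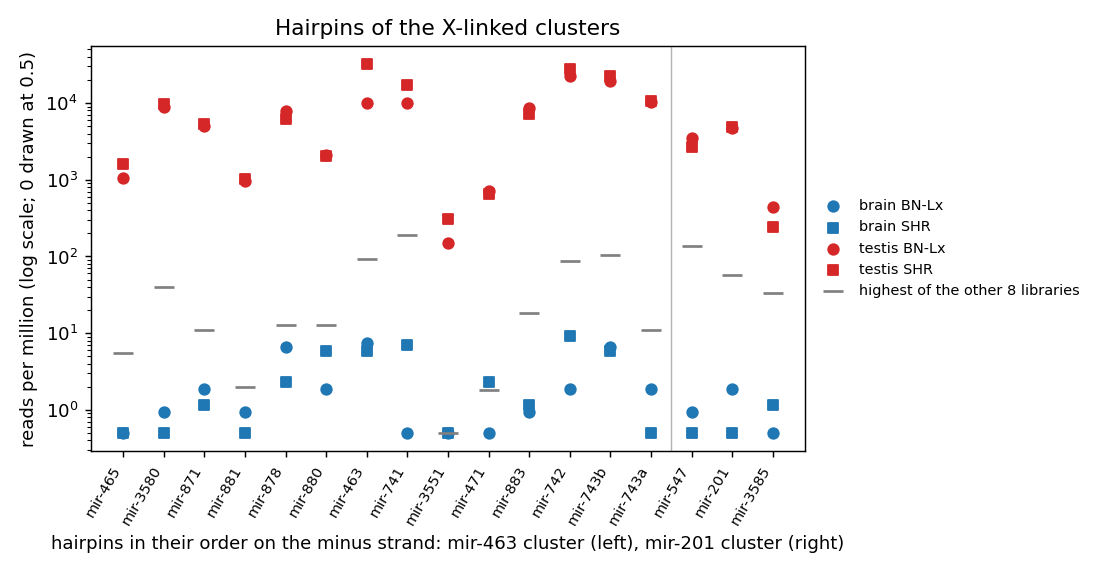
RPM (log scale) of the hairpins of the mir-463 cluster (left of the line) and the mir-201 cluster (right), in their order on the minus strand, in the 4 libraries, with the highest of the other 8 libraries as a grey dash. Every hairpin lies higher in both testis libraries than in both brain libraries.

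The mir-201 cluster (mir-3585, mir-201 and mir-547), on the same strand at chrX:151706741-151712151, behaved alike. It had 2.82 and 1.16 RPM in brain and 8668 and 7827 RPM in testis. All 6 arms lay higher in both testis libraries, against 138 of the 623 arms with a read in the 4 libraries. All 5 tested arms were called. None of them passed the filter through brain, where the cluster had almost no reads, so a call toward brain could not arise. mir-201-5p and mir-547-5p, without a read in brain, were at least 951-fold and 859-fold higher in testis, and mir-201-3p, the leading strand, had 2 and 0 reads in brain and 94 and 93 reads in testis, a ratio of 3214 (95% counting interval 877 to 26735).

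mir-202, on chromosome 1, had few reads outside testis. mir-202-5p had 8.45 and 4.65 RPM in brain and 24330.4 and 42566 RPM in testis and differed by -12.09 ± 1.57 (SE), adjusted p = 1.25e-04. Its highest value elsewhere was 84.5 RPM. Both of its arms were called.

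The mir-34 and mir-449 family was high in both tissues, but through different members. Summed, it had 7906 and 8144 RPM in brain and 40365 and 59627 RPM in testis, against 609 to 5309 RPM in the other 8 libraries, so all 4 libraries lay above the rest. In brain the family was mostly mir-34a, which p53 induces: mir-34a-5p had 6499 and 5968 RPM in brain and 2679 and 721 RPM in testis, with both brain libraries above both testis libraries, and its difference of 2.16 ± 0.996 (SE), adjusted p = 0.0998, did not pass. It passed in the fit of the 4 libraries alone (2.29, adjusted p = 3.06e-04), with no filter (2.27, adjusted p = 0.0174) and at equal depth (2.01, adjusted p = 0.0178). It did not pass with the other scalings, with paralogs summed, without the replicate block or by DESeq2. With 1 library left out, the difference ranged from 1.22 to 3.69. In testis the family was mostly mir-34b and mir-34c, which lie 579 bp from end to end at chr8:60306101-60306679 (GRCr8).

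mir-34b-3p had 98.6 and 179 RPM in brain and 19754 and 27565 RPM in testis and differed by -7.09 ± 0.95 (SE), adjusted p = 1.15e-04. mir-34c-5p, at the values given above, differed by -3.54 ± 0.91 (SE), adjusted p = 0.00683, a call that was lost without BN-Lx brain (-3.23, adjusted p = 0.0653) and without SHR testis (-3.10, adjusted p = 0.0592). mir-34c-3p had 39.4 and 29.1 RPM in brain and 1599.7 and 2815 RPM in testis and differed by -5.86 ± 0.96 (SE), adjusted p = 5.26e-04. The minor strands lay closer together. mir-34b-5p had 140.4 and 83.7 RPM in brain and 446 and 378 RPM in testis and mir-34a-3p 178 and 136 RPM in brain and 558 and 412 RPM in testis, and neither passed (adjusted p = 0.253 and 0.15). mir-449a-5p had 1 and 1 reads in brain and 13 and 52 reads in testis, a ratio of 1117 (95% counting interval 297 to 9420.3), and mir-449a-3p had 24 and 19 reads in testis and none in brain, at least 493-fold higher in testis. mir-449c-3p had 1 and 2 reads in testis and mir-449c-5p 1 read in BN-Lx brain, and both were under the filter. Of the 10 arms, 8 were tested, 5 were higher in testis and 0 in brain.

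Grouped by seed, the contrast was larger for the 3p strands. Strands with the seed GGCAGUG (mir-34a, b, c and mir-449a, c, 5p) summed to 7589 and 7800.4 RPM in brain and 17522 and 28114 RPM in testis, and those with the seed AUCACUA (mir-34b and mir-34c, 3p) to 138 and 208 RPM in brain and 21354 and 30380.0 RPM in testis. Over all called arms with a RefSeq strand, 85 seeds occurred among arms higher in brain and 65 among arms higher in testis, and 3 seeds occurred in both.

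**Figure D4:**
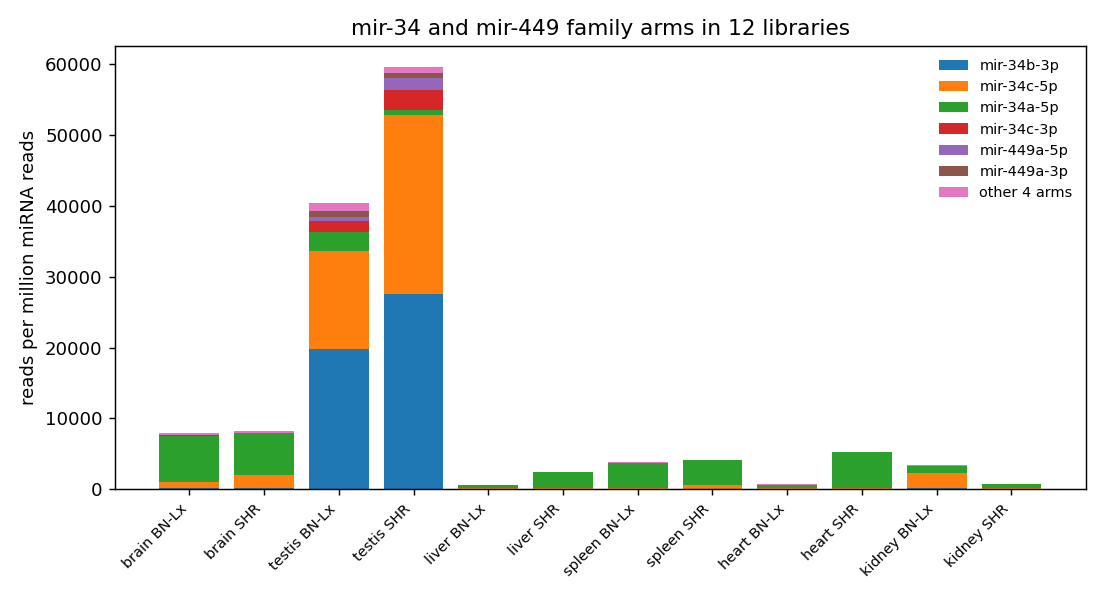
RPM of the mir-34 and mir-449 arms, stacked, in the 2 libraries of each tissue. The brain bars are nearly all mir-34a-5p, the testis bars mostly mir-34b-3p and mir-34c-5p, and the BN-Lx kidney bar holds mir-34c-5p while the SHR kidney bar holds little.

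The BN-Lx kidney library held testis strands beyond those of its SHR counterpart. mir-34c-5p was at 2115 RPM in BN-Lx kidney and 207 RPM in SHR kidney, the mir-463 cluster at 588 and 10.03 RPM, and mir-202-5p at 84.5 and 1.67 RPM. The mir-201 cluster lay closer together, at 182 and 114 RPM. The part of the BN-Lx kidney library in the comparison of brain and testis with the other tissues was not tested.

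The mir-17-92 cluster and its paralogs, miRNAs of dividing cells, were higher in testis. Their 14 hairpins had 5842 and 5855 RPM in brain and 63132 and 55919.8 RPM in testis, and 10809 to 67672 RPM elsewhere, so brain lay under the range of the other tissues and testis within it. Of 24 tested arms, 17 were higher in testis and 0 in brain, with a median of -3.02. mir-19b-1-3p, which shares its reads with mir-19b-2, had 1349 and 1057 RPM in brain and 15997 and 8891 RPM in testis and differed by -3.03 ± 0.38 (SE), adjusted p = 7.04e-05. mir-17-1-5p had 720.3 and 948 RPM in brain and 10807 and 10779 RPM in testis.

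Arms shared by brain and testis were sought by setting the mean of both tissues against the mean of liver, spleen, heart and kidney in the same fit. Here 104 of 458 arms (22.7%) had a higher mean and 115 (25.1%) a lower one. A single tissue can carry that mean, and 13 arms of the mir-463 cluster, nearly without reads in brain, were among the 104. The split depended on the scaling: 117 against 87 with RLE factors, 140 against 51 with total reads and 133 against 62 with the outlier-corrected mean. Among the arms called higher, 45 lay above all of the other 8 libraries in each of the 4 brain and testis libraries. Of these, 20 belong to the Dlk1-Meg3 cluster, 11 to the neuronal list and 14 to neither. For 22 of them a testis library held fewer than 4 reads, where 1 read alone exceeds the level of many deeper libraries, and 14 had at least 10 reads in each testis library.

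mir-135b-5p was shared in this sense, with 1459.8 and 1161 RPM in brain and 3088 and 1613 RPM in testis and 0 to 25.7 RPM elsewhere. It was higher in the pair by 7.25 ± 0.42 (SE), adjusted p = 1.59e-07, and brain and testis did not pass the test between them (-0.42 ± 0.57 (SE), adjusted p = 0.583). mir-204-5p, known from retina and choroid plexus, had 10375 and 7053 RPM in brain and 17597 and 15104 RPM in testis and 192 to 4201 RPM elsewhere, a difference of 2.97 ± 0.23 (SE), adjusted p = 1.16e-06. mir-296-5p, from an imprinted locus with mir-298, had 705 and 419.5 RPM in brain and 1525 and 4737 RPM in testis and 10.7 to 245 RPM elsewhere, a difference of 4.38 ± 0.43 (SE), adjusted p = 5.81e-06. Its call of being higher in testis than in brain (-2.32 ± 0.70 (SE), adjusted p = 0.0172) was lost without BN-Lx brain, without SHR brain and without SHR testis, where the difference became -0.81, adjusted p = 0.38. mir-298-5p beside it had 25 and 11 reads in brain and 2 and 4 reads in testis.

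mir-34c-3p and mir-34a-3p were the members of the mir-34 family in this set, although mir-34c-3p was rare in brain and was called higher in testis than in brain. mir-34b-3p missed it because BN-Lx kidney reached 116 RPM, above the BN-Lx brain value of 98.6 RPM, and mir-34c-5p missed it through BN-Lx kidney. Against the other tissues, mir-34b-3p differed by 4.54 ± 0.47 (SE), adjusted p = 7.68e-06 and mir-34c-5p by 3.38 ± 0.50 (SE), adjusted p = 1.39e-04, while the brain values alone were 98.6 and 179 RPM for mir-34b-3p, against at most 116 RPM elsewhere, and 948 and 1748 RPM for mir-34c-5p, against at most 2115 RPM elsewhere.

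Other shared strands with at least 10 reads in each testis library included mir-328a-3p (2014 and 7325 RPM in brain and 1228 and 2575 RPM in testis), mir-7a-1-3p (2224 and 1287 RPM in brain and 893 and 996 RPM in testis), mir-331-3p (4303 and 4109 RPM in brain and 2604 and 1476 RPM in testis) and mir-702-3p (634 and 578 RPM in brain and 372 and 343 RPM in testis). In spleen mir-7a-1-3p had 794 and 714 RPM, close under its testis values. mir-331-3p was also called higher in brain (1.41 ± 0.45 (SE), adjusted p = 0.0226), a call lost without BN-Lx brain, SHR brain or SHR testis (largest adjusted p = 0.161). It was also lost with total reads (1.07, adjusted p = 0.0793), with the outlier-corrected mean (0.91, adjusted p = 0.143) and at equal depth (1.27, adjusted p = 0.078). The neuronal strands mir-124-3p, mir-128-3p and mir-129-2-3p also belonged here: in testis they were lower than in brain but above the other 8 libraries.

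The most abundant strands were broadly expressed miRNAs. mir-29a-3p was the most abundant arm of brain, at 110994 and 127769 RPM in brain and 45610.1 and 41708 RPM in testis, and differed by 1.79 ± 0.33 (SE), adjusted p = 9.16e-04. mir-29c-3p, with the same seed AGCACCA, had 40751 and 49181 RPM in brain and 11223 and 8937 RPM in testis. The 2 hairpins of mir-24 had 65637 and 64356 RPM in brain and 33557 and 35529 RPM in testis together. mir-125a-5p had 43154 and 25680.2 RPM in brain and 31213 and 24819 RPM in testis, and the tissues overlapped. mir-145-5p, a smooth muscle miRNA, was the most abundant arm of testis, at 19426 and 23844 RPM in brain and 136086 and 126017 RPM in testis, and differed by -2.26 ± 0.28 (SE), adjusted p = 7.19e-05.

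For 9 arms the 95% interval of the difference lay within 1 log2 unit of 0, which bounds how far the tissues can differ on the scale of the fit. The 5 with most reads were mir-103-1-3p and mir-103-2-3p, which are 1 strand from 2 hairpins, mir-99a-5p, mir-191-5p and mir-107-3p. The sign of all 5 differences turned under at least 1 alternative, so no direction is given. In RPM, mir-103-3p summed to 69064 and 45703 RPM in brain and 111471 and 65017 RPM in testis. The interval for mir-103-1-3p ran from -0.91 to 0.33, that for mir-99a-5p from -0.74 to 0.57, that for mir-191-5p from -0.63 to 0.69 and that for mir-107-3p from -0.84 to 0.88.

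The let-7 family, which rises with differentiation, had 40043 and 32446 RPM in brain and 16183 and 28492 RPM in testis. Of 20 tested arms 4 were higher in brain and 0 in testis, and the fitted median of 1.25 was close to that of all arms. With arms at 0 in a tissue at their bound, the let-7 median was 1.25 over 20 arms, against 0.66 over 397 of all tested arms. let-7f-2-5p had 7887 and 6567 RPM in brain and 2772 and 4171 RPM in testis, and its call (1.37 ± 0.35 (SE), adjusted p = 0.00641) was lost without BN-Lx brain (1.11, adjusted p = 0.0603) and without BN-Lx testis (0.96, adjusted p = 0.114), and with the study's outlier-corrected mean as the scaling (0.92, adjusted p = 0.0611).

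Markers of other cells moved with the tissues as well. The stromal and smooth muscle list (mir-199a, mir-214, mir-143 and mir-145) had 20824 and 25429 RPM in brain and 149405 and 136281 RPM in testis. The other 8 libraries had 40997 to 206577 RPM, so brain lay under their range and testis within it. All 6 tested arms were higher in testis than in brain. One of them, mir-199a-3p, lost its call without BN-Lx brain (adjusted p = 0.152), without SHR brain (adjusted p = 0.0634), without SHR testis (adjusted p = 0.175) and with paralogs summed (adjusted p = 0.061). The vessel list (mir-126, mir-221 and mir-222) had 5440.0 and 6261 RPM in brain and 2753 and 2781 RPM in testis. Both tissues lay under the 9261 to 23361 RPM of the other 8 libraries. Of 6 tested arms, 2 were higher in brain, among them mir-126-3p (1.45 ± 0.36 (SE), adjusted p = 0.00562), whose call was lost without BN-Lx testis (1.003, adjusted p = 0.0857). The blood cell list had 9894 and 12264 RPM in brain and 17819.9 and 17713 RPM in testis. Of its 9 tested arms only mir-223-3p, of granulocytes, was called, higher in testis, and mir-150-5p, of lymphocytes, was at 6822 and 6987 RPM in brain and 8743 and 8136 RPM in testis. The part of these cells in the differences above was not tested.

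The liver miRNA mir-122 had 441 and 367 RPM in brain and 3423 and 2815 RPM in testis. Testis lay far under the highest value of the set, 389821 RPM in liver, but above spleen, heart and kidney (109 to 423 RPM). Both arms of mir-122 were higher in testis than in brain. The muscle list had 173 and 106 RPM in brain and 298 and 309 RPM in testis, with 0 of 9 tested arms called. The epithelial list had 4535 and 1541 RPM in brain and 6362 and 4257 RPM in testis and overlapped, with 1 of 12 tested arms called, mir-192-5p at 2198 and 1392 RPM in brain and 5878 and 3673 RPM in testis, a call lost in the fit of the 4 libraries alone (-1.23, adjusted p = 0.0503). The BN-Lx brain library held most of its mir-200 reads, with 455 reads of mir-200b-3p against 4 in SHR brain. The mir-290 cluster of pluripotent cells had 1 and 3 reads in brain and 1 and 0 reads in testis for its leading strand mir-293-5p, and none of its arms passed the filter. The sensory cluster (mir-96, mir-182 and mir-183) overlapped between the tissues, with 1029 and 46.5 RPM in brain and 74.4 and 34.3 RPM in testis and 0 of 3 tested arms called. Its leading strand mir-182-3p rested on BN-Lx brain, with a difference of -0.24, adjusted p = 0.919 without it and 4.94, adjusted p = 0.00201 without SHR brain.

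The choice of arm differed between the tissues for few hairpins. Of 58 hairpins with at least 50 reads in each of the 4 libraries, 4 had 3p shares at least 20 percentage points apart without overlap, and the median absolute difference was 0.274 percentage points. Exact Clopper-Pearson 95% intervals are given in parentheses and cover counting error only. mir-34b gave 41.3% (35.1 to 47.5) and 68.1% (61.6 to 74.2) in brain and 97.8% (96.2 to 98.9) and 98.6% (97.6 to 99.3) in testis, so its 3p strand made up nearly all reads in testis and shared them with the 5p strand in brain. The 3p share of mir-378, a miRNA of oxidative tissues, was 89.4% (88.3 to 90.4) and 95.1% (93.3 to 96.5) in brain and 60.2% (49.2 to 70.5) and 62.7% (51.3 to 73.0) in testis. For mir-199a it was 61.3% (56.9 to 65.5) and 87.3% (83.4 to 90.6) in brain and 28.8% (22.8 to 35.5) and 45.1% (37.6 to 52.8) in testis, and for mir-122 50.2% (45.6 to 54.8) and 48.7% (43.1 to 54.4) in brain and 68.5% (58.0 to 77.8) and 74.4% (63.6 to 83.4) in testis. The intervals of the strains did not overlap in brain for mir-34b, mir-199a and mir-378, nor in testis for mir-199a. mir-34c, by contrast, kept its 5p strand as the major one in both tissues, with 3p shares of 3.99% (2.89 to 5.36) and 1.64% (1.06 to 2.40) in brain and 10.3% (7.56 to 13.6) and 10.04% (8.06 to 12.3) in testis.

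**Figure D5:**
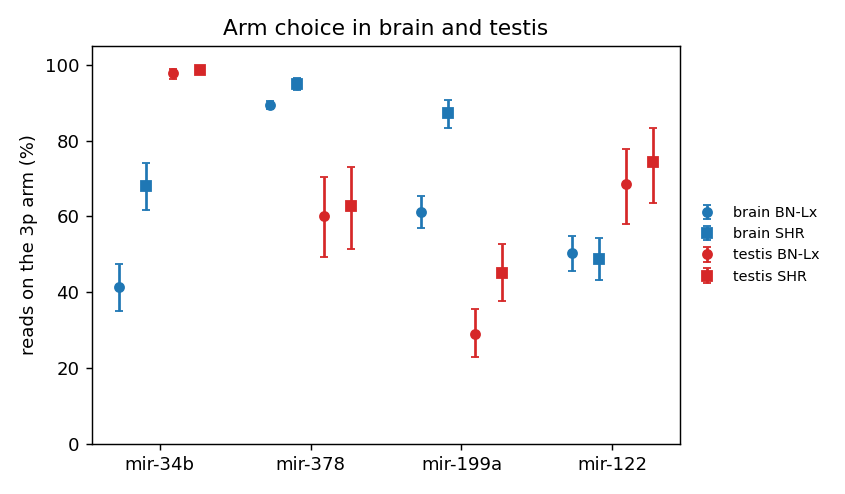
Share of a hairpin's reads on the 3p arm, in percent, for the 4 hairpins that differed, with exact 95% intervals as bars. The testis libraries (red) lie above the brain libraries (blue) for mir-34b and mir-122 and below them for mir-378 and mir-199a.

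The read ends differed little. For all 55 arms with at least 50 reads in each library, the commonest 5' start, which sets the seed, was the same position in the 4 libraries. The mean read length did not overlap between the tissues for 33 arms, 18 longer in brain and 15 longer in testis, and the median difference was -0.0148 nt. The largest gaps were in mir-17-1-5p, with 22.4 and 22.4 nt in brain and 23.1 and 23.1 nt in testis, and in let-7f-1-5p, with 21.4 and 21.4 nt in brain and 20.7 and 20.7 nt in testis. mir-34c-5p had 22.8 and 22.9 nt in brain and 22.7 and 22.8 nt in testis.

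At equal depth brain and testis held more arms than the other tissues. As sequenced, 573 and 534 arms had a read in brain and 325 and 343 in testis, with 263 arms in all 4 libraries, 170 in both brain and neither testis library and 15 in both testis and neither brain library. Thinned to the 26879 whole reads of the shallowest library, 363 and 344 arms would be expected in brain against 324 and 331 in testis, and 230 to 281 in the other 8 libraries. All 4 libraries lay above the other 8, with brain above testis in both strains. With paralogous hairpins summed the numbers were 326 and 307 in brain and 293 and 308 in testis, so SHR brain no longer lay above SHR testis. A share of 50% of the reads came from 14 to 15 arms in each of the 4 libraries and from 4 to 12 arms in the other 8. The 15 arms read in both testis and neither brain library include mir-742-5p, mir-449a-3p, mir-202-3p, mir-201-5p, mir-465-3p and mir-547-5p. Other tissues were not part of that rule, and mir-547-5p had 81.8 and 63.4 RPM in heart.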

How the data were processed

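Small RNA of whole organs was sequenced by the authors on SOLiD, the linker was trimmed and reads were matched with SHRiMP to hairpins of RGSC3.4 and miRBase. The deposited values are estimated counts of perfect matches per start and end position on a hairpin, without normalization, and hold fractions where a read had more than 1 matching hairpin and was shared out equally by the authors. Here they were summed per hairpin arm (midpoint against the middle of the hairpin). Of 387 hairpins, 273 were named from the study's loci by name, 50 by equal reads over the 12 libraries (at least 5 reads, tolerance 1.01 reads), 49 were antisense and 15 kept the files' name.

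Rounded counts of all 12 six-tissue libraries were tested with edgeR 4.0.16 (glmQLFit, TMM, filterByExpr by tissue, R 4.3.3), with tissue and strain as terms, and by DESeq2 1.42.0 as an alternative. The strain marks the animal. Strain deviations of brain and testis had a correlation of 0.199 over 113 arms with at least 10 reads in each of the 4 libraries. Python 3.11.15, numpy 2.4.6, pandas 2.3.3, scipy 1.17.1 and matplotlib 3.10.9 were used for the rest. The fit was tested on simulated counts. The 4 further liver libraries were not used here.

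The arms named are the arms of mir-128-1, mir-34c and mir-742, all mir-34 and mir-449 arms, the 8 most abundant of each tissue, the 10 with the largest called difference in each direction with at least 10 reads in each library of the higher tissue, the leading arm of each list, the shared and level arms and the hairpins that differ in arm choice. A few more list members are named as examples after their values were seen. The tissues compared, the members and the lists were chosen with earlier results of these data known. Alternatives changed the tool, scaling, filter, block, depth, paralogs, libraries and thresholds.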

Additional observations from a re-analysis of the deposited data

How the results depend on the processing

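The 120 arms higher in brain, the 78 higher in testis and the 104 with a higher mean of brain and testis than of the other tissues stayed within 1.5 times of these counts under every alternative but 1: left out in turn, the libraries gave 78 to 108, 64 to 73 and 79 to 93 arms, the lowest for brain without BN-Lx testis. With the tissue alone as a term and no replicate block for the strain, the counts were 135, 81 and 104. The mean of the 2 libraries for arms detected at equal depth was 353 in brain, 257 with at least 3 reads and 317 with paralogous hairpins summed. For arms detected at equal depth, testis had 327, 231 and 300.4. Of 1264 values of named arms under an alternative, 1166 kept direction and side of the threshold, 41 lost the call, 20 gained it and 37, from 12 arms, changed sign, with 0 of those 37 called in either fit. Of 70 named arms with a call, 55 kept it wherever they were tested, and leaving out the strain changed no call of a named arm.

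The values that changed sign are log2 differences, brain minus testis, that passed neither in the reported fit nor in the alternative. With paralogs summed, the value became 0.11 for mir-103-2-3p, 0.11 for mir-103-1-3p, 0.33 for mir-99a-5p, 0.32 for mir-1193-3p, 0.0055 for mir-135b-5p, 0.22 for mir-221-5p and 0.19 for mir-494-3p. With total reads as the scaling, the value became -0.28 for mir-150-5p, -0.29 for mir-191-5p, -0.27 for mir-107-3p and -0.11 for mir-378-3p. With the outlier-corrected mean, the value became -0.44 for mir-150-5p, -0.45 for mir-191-5p, -0.43 for mir-107-3p and -0.28 for mir-378-3p. In the fit of the 4 libraries alone, the value became -0.11 for mir-150-5p, -0.10 for mir-191-5p, -0.054 for mir-107-3p and -0.091 for mir-378-3p. Without the replicate block, the value became -0.033 for mir-107-3p. At equal depth, the value became -0.021 for mir-150-5p, 1.22 for mir-1193-3p, -0.012 for mir-191-5p and -0.080 for mir-107-3p. With 1 library left out, the values ranged from -0.24 to 0.19 for mir-150-5p, from -0.24 to 4.94 for mir-182-3p, from -1.13 to 1.81 for mir-1193-3p, from -1.18 to 1.20 for mir-221-5p, from -0.59 to 0.10 for mir-494-3p, from -0.23 to 0.12 for mir-191-5p, from -0.53 to 0.53 for mir-107-3p and from -0.82 to 0.88 for mir-378-3p. The cause of these changes was not tested. The low depth of testis limits arms below about 50 RPM there.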

Other observations

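The sensory cluster, known from photoreceptors and hair cells, was unequal between the brain libraries. Given as BN-Lx and SHR, mir-182-3p had 720 and 27 reads, mir-183-5p 312 and 11 reads and mir-96-5p 13 and 0 reads, in libraries of 1064894 and 860468 reads. With 1 library per strain, strain, animal and dissection cannot be told apart. These strands were chosen after their values were seen.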
